A study of Mus musculus with 12 samples.

Results

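The ileum of untreated young males of the NOD strain, in which autoimmune diabetes arises spontaneously, was described by its microRNA (miRNA) composition. The members are the 566 mouse miRNA probes of a 599-probe table, read in the 4 libraries labelled control of the 12 libraries deposited. All 4 came from NOD/ShiLtJ males at postnatal day 23 and share 1 batch label. Whole litters had been randomised with their dams to control, antibiotic or cecal transfer. Which litter a library came from is not stated, so the spread described here is between libraries that could share a litter. The labels name ileum as the tissue, whereas the design text speaks of intestinal epithelial cells. No treatment groups were compared and no difference between probes or lists was tested. With 4 libraries the smallest two-sided p of an exact sign-flip test is 0.125, so an order between 2 probes could not pass 0.05 in such a test.

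A miRNA is cut from a hairpin precursor and loaded into an Argonaute protein, where it pairs with messenger RNAs and lowers their translation and stability. The bases 2 to 8 from its 5′ end, the seed, do most of the pairing, so miRNAs that share a seed have overlapping predicted targets and are grouped as a family. In the gut wall, miR-194 and miR-192 are known from enterocytes, the miR-200 family from epithelia in general, and miR-143 and miR-145 from smooth muscle and other mesenchymal cells. miR-126 is known from endothelium, and miR-142, miR-150 and miR-223 from white blood cells. In a bulk sample, fewer cells of a type and less RNA per cell cannot be told apart.

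The mature sequences below are those of the miRNAs that carried most of the signal, shown because their seeds define the families described afterwards. They are RefSeq entries on GRCm38.p6, written 5′ to 3′ with the seed in capitals. RefSeq entries were matched to 53.2% of the 566 mouse probes, to 126 of the 189 probes above background and to 17 of the 20 most abundant. The let-7 family comes first, led by let-7g.
let-7g: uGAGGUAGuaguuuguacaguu
let-7c: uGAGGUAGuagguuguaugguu
let-7d: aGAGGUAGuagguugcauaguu
let-7f: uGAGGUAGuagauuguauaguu
let-7a: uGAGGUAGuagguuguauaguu
let-7b: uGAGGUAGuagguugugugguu
let-7i: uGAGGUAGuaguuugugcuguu

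A pair of seeds that differ at 1 base splits the miR-200 family, and both sets are shown because all 5 members were well above background.
miR-429: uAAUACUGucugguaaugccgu
miR-200b: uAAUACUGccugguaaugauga
miR-200c: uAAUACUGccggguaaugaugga
miR-200a: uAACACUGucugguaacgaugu
miR-141: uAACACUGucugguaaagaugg

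The next set holds the enterocyte pair, the miR-15/16 family, the endothelial miR-126-3p, and miR-20a and miR-20b, which 1 probe of the panel reads together.
miR-194: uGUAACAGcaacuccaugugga
miR-192: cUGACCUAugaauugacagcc
miR-16: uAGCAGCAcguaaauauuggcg
miR-15b: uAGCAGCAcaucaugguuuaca
miR-15a: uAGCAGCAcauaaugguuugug
miR-126-3p: uCGUACCGugaguaauaaugcg
miR-20a: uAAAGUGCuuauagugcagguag
miR-20b: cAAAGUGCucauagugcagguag

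Levels are units of normalised signal from the nCounter assay, which joins a tag to each mature miRNA, captures it with a fluorescent reporter and counts the reporters with no amplification step. Each deposited value is a whole count times 1 factor per library. The recovered totals were 274302, 217516, 169844 and 202054 counts in control replicates 1 to 4, and 1 count was worth 0.845 to 1.40 units. A probe was called above background where it exceeded 32 units in all 4 libraries, which is 22.9 to 37.9 counts. Of the 33 herpesvirus probes of the panel, 4 passed that limit in at least 1 library and 1, mghv-miR-M1-7-5p, in all 4. Probes differ in how well they ligate and hybridise, so ranks and shares describe signal and not molecules.

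Replicate 3 lay at the end of the range in several measures of whole libraries, before any single miRNA is considered. It was the shallowest library and had 239 mouse probes above 32, against 201 to 208 in the others. Of the mouse probes, 25 passed the limit in replicate 3 alone, and 1 to 3 did so in each other library alone. Its herpesvirus probes averaged 27.5 units, against 11.8 to 15.9 in the other libraries, with a median of 12.6 against 8.50 to 10.1. That average includes mghv-miR-M1-7-5p at 426 units, and the next herpesvirus probe of replicate 3 read 34.9. These are scaled units: 1 count was worth 1.40 units in replicate 3, against 0.845 to 1.15 in the others. The limit of 32 units was thus 22.9 counts in replicate 3, against 27.9 to 37.9 counts in the others. The part of depth or background in the results below was not tested, and values without replicate 3 are given for the concentration of signal and for the probes of highest spread. Over the 189 probes above background, the log2 signals of the 6 pairs of libraries correlated at 0.971 to 0.991. Those probes share their library scaling and the wide range of probe levels. On the recovered counts of all 566 mouse probes, every pair differed by more than counting noise. The chi-square statistic lay between 5.53 and 13.2 per degree of freedom, so no 2 libraries agreed within sampling noise.

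Signal was concentrated in few miRNAs. Of the 566 mouse probes, 189 (33.4%) were above background in all 4 libraries, 246 in at least 1 and 320 in none. The 189 held 97.9% ± 0.484 of the mouse signal (SD, n = 4), with a median level of 161 units. The 10 highest probes of each library held 48.2%, 46.8%, 43.8% and 48.9% of the mouse signal in replicates 1 to 4. The fixed set of 10 probes with the highest mean level held 46.7% ± 2.27, and the 20 of highest mean level held 66.4% ± 1.65. Without replicate 3, the 10 of highest mean level held 47.8% and the most abundant probe 11.1%, against 10.4% with it. Ordered by mean share, 12 probes held 50% of the mouse signal and 59 held 90%. A mean level above 1000 units was reached by 47 probes, and above 10000 units by 4, which were miR-720, miR-145, miR-194 and let-7g. The median spread of the probes above background was a coefficient of variation (CV) of 11.8%, against 8.30% from counting error alone.

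**Figure D1:**
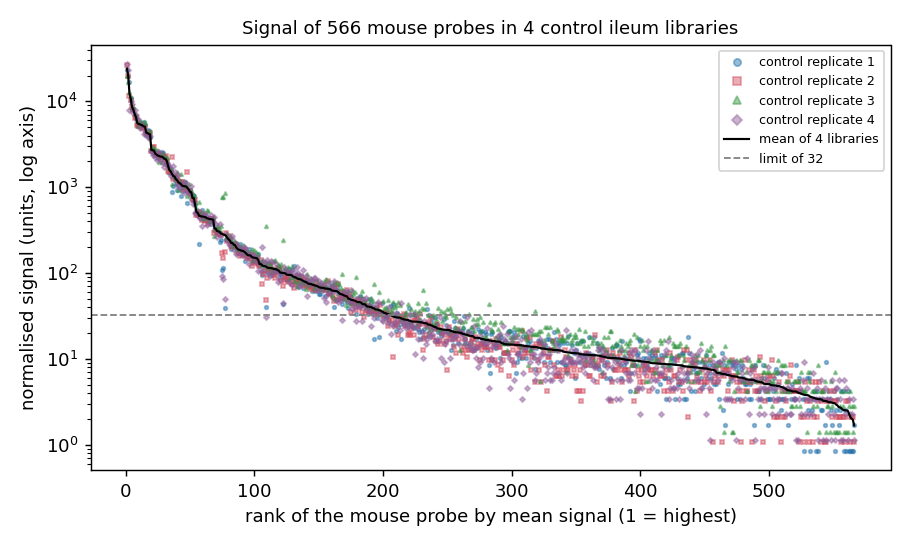
Normalised signal of the mouse probes (log axis) against their rank by mean level over the 4 control libraries. Each library is drawn with its own symbol, and the limit of 32 units is marked: 189 probes were above it in all 4 libraries, and 4 had means above 10000 units.

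The most abundant probe was miR-720, at 22997, 26537, 19747 and 27297 units in replicates 1 to 4, or 10.4% ± 1.59 of the mouse signal. Its sequence is a fragment of a transfer RNA and its entry was withdrawn from the miRBase database, so it is no miRNA of a hairpin. miR-145, the smooth muscle miRNA, followed with 19799, 19693, 17011 and 23400 units (mean 19976 ± 2622). The miR-720 probe ranked first and miR-145 second in every library.

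Next by mean was the enterocyte miRNA miR-194, with 16796, 11584, 13033 and 7936 units (mean 12337 ± 3666). Its highest value, in replicate 1, was more than that of any let-7 member in any library, whereas its lowest, in replicate 4, was below let-7g, miR-143 and let-7c of the same library. It ranked between 3 and 6. let-7g, of a family that in the worm Caenorhabditis elegans times development, had 11006, 10266, 11173 and 10234 units, and ranked 3 or 4. miR-194 exceeded let-7g in 3 of 4 libraries, by 0.16 ± 0.40 on the log2 scale, so their order did not hold beyond the spread.

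Below them, miR-143 had 8055, 8569, 8311 and 9362 units and miR-16, which represses cell cycle genes and Bcl2, had 8223, 7897, 8594 and 7359 units. They changed places between libraries: miR-143 was higher in 2 of 4. let-7c averaged 7118 ± 671 units, let-7d 6589 ± 322, miR-126-3p 5632 ± 448, let-7f 5435 ± 538, let-7a 5426 ± 391 and miR-429 5331 ± 303. let-7b, miR-192, miR-200b, let-7i, miR-22, miR-200c and the joint probe for miR-20a and miR-20b lay between 5245 and 4142 units, and miR-27a came twentieth with 2707 ± 130. The same 19 probes were among the 20 highest in every library.

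Of the 19 pairs of neighbours in this order, 6 kept their order in all 4 libraries. They were miR-720 over miR-145 (log2 difference 0.27 ± 0.11), miR-145 over miR-194 (0.74 ± 0.59), let-7g over miR-143 (0.32 ± 0.15), let-7d over miR-126-3p (0.23 ± 0.07), miR-200b over let-7i (0.24), and the joint probe for miR-20a and miR-20b over miR-27a (0.61 ± 0.06). The step down to miR-27a was many times its SD, whereas that between miR-145 and miR-194 was little more than its SD. The other 13 pairs swapped in at least 1 library, so the middle of the list is a group of close levels and no strict ranking.

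**Figure D2:**
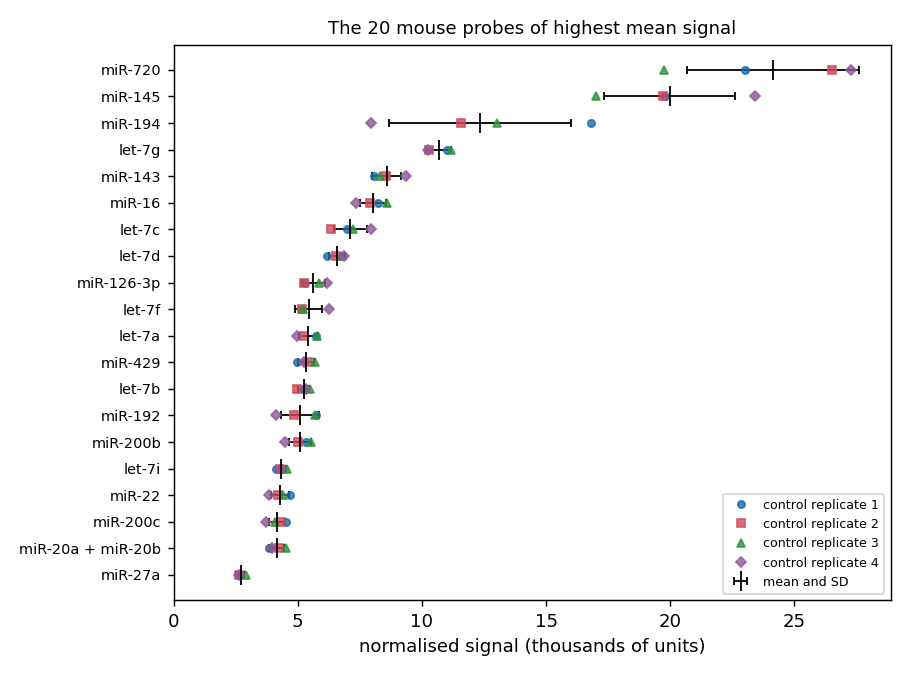
Normalised signal of the 20 most abundant mouse probes in the 4 control libraries, one point per library, with bars for the mean and SD. miR-194 is the most scattered of the first 10, between 7936 and 16796 units, and the probes from let-7f to let-7i overlap.

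Grouped by seed, the let-7 family was the largest group of matched probes. Its seed GAGGUAG, shared by 10 probes with miR-98 and miR-1961 among them, held 19.7%, 19.1%, 20.2% and 20.6% of the mouse signal in replicates 1 to 4, a mean of 19.9% ± 0.640. No single member dominated: let-7g made up 23.1% of it. The members differ from let-7a by few bases outside the seed, let-7c, let-7e and let-7f by 1 base each, let-7b, let-7d and let-7g by 2, and let-7i by 4. The weakest of these was let-7e, at 873 units. Probes for such near-identical sequences may read each other's target, so the split between members is less certain than their sum.

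The miR-200 seed AAUACUG, of miR-429, miR-200b and miR-200c, held 6.28% ± 0.301, and the seed AACACUG, of miR-200a and miR-141, held 1.62% ± 0.172. The seed AGCAGCA of the miR-15/16 family held 5.57% ± 0.349, and miR-16 made up 62.0% of it. The seed of miR-194 held 5.31% ± 1.58 with 1 probe, and that of miR-17, miR-20 and miR-106, a family of proliferating cells, held 3.13% ± 0.184 with 4 probes. The seeds of miR-126-3p, miR-192, miR-22 and miR-125 followed, with 2.42%, 2.19%, 1.84% and 1.49%. These 10 families together held 49.8% ± 2.28 of the mouse signal. Of all 85 seeds among the matched probes above background, 22 were shared by at least 2 of those probes. The matched probes held 68.5% ± 2.66 of the mouse signal, and the seeds of the rest, with miR-720, miR-145 and miR-143 among them, are not included. A 5′ U stood on 78 of the 126 matched probes above background (61.9%). Over all matched probes, above background or not, those with a 5′ U held 73.8% ± 0.694 of the matched signal. A joint probe whose miRNAs differ in that base was not counted as U.

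Epithelial miRNAs were abundant. The enterocyte miRNAs miR-194 and miR-192 together held 9.74%, 7.12%, 7.93% and 5.23% of the mouse signal in replicates 1 to 4, a mean of 7.50% ± 1.87. The share was highest in replicate 1 and lowest in replicate 4. miR-215, also named for that list, had no probe among the mouse probes and is not part of it. miR-192 had 5744, 4839, 5691 and 4131 units, the same order of libraries as miR-194. All 5 miR-200 family probes were above background. The family represses the transcription factors Zeb1 and Zeb2 and so keeps cells epithelial, and it held 8.20%, 7.91%, 8.22% and 7.25%, a mean of 7.90% ± 0.452. It varied less between libraries than the enterocyte pair. miR-375, a miRNA of endocrine and goblet cells, had 2476, 2925, 2800 and 2521 units (mean 2680 ± 217), and miR-7a, of endocrine cells, averaged 181.5 ± 6.85 and miR-7b 65.7 ± 16.3. Of the miR-96, miR-183 and miR-182 cluster of sensory epithelia, miR-96 averaged 436 ± 79.2 units, miR-183 211 ± 10.6 and miR-182 45.9 ± 3.52, and the 3 held 0.298% ± 0.0306.

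The smooth muscle and fibroblast list held more signal than the enterocyte list alone or the miR-200 list alone in every library. Its 5 probes had 13.2%, 13.4%, 11.9% and 15.4% of the mouse signal, a mean of 13.5% ± 1.42. The epithelial signal is split over those other lists, with means of 7.50% and 7.90%. No order between all epithelial and all smooth muscle and fibroblast signal follows. Within the smooth muscle and fibroblast list, miR-145 and miR-143 came first. Nearly all of that list's signal came from these 2 probes. miR-199a-3p, a miRNA of fibroblasts, averaged 1585 ± 128 units and miR-199a-5p 1117 ± 92.8, while miR-214, made from the same transcript, was below background in all 4 libraries, at 15.9 ± 1.43. Markers above background were thus not limited to the epithelial cells named in the design text, and those of endothelium and blood are given next.

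Striated muscle miRNAs were low apart from miR-1, with 1043, 1231, 1359 and 1771 units (mean 1351 ± 308). miR-1 and miR-133a are made from the same loci and are also known from smooth muscle, and miR-133a averaged 185 ± 29.0. The other 5 of the 7 striated muscle probes, miR-499, miR-133b, miR-208b, miR-206 and miR-208a, were not above background in all 4 libraries. miR-208b passed it in replicate 3 alone and miR-499 in replicate 4 alone. The endothelial miR-126-3p had 5278, 5243, 5844 and 6163 units, and with its partner arm miR-126-5p held 2.61% ± 0.202 of the mouse signal.

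White blood cell miRNAs held 0.694%, 1.22%, 0.963% and 0.970%, a mean of 0.961% ± 0.214, and their members behaved unlike each other. miR-142-3p, known from most blood cell lineages, had 649, 1522, 799 and 960 units, and miR-223, of myeloid cells, had 219, 515, 673 and 448 units. miR-142-3p was highest in replicate 2 and miR-223 in replicate 3, and both were lowest in replicate 1. miR-150, of mature lymphocytes, had 445, 462, 443 and 450 units, so the libraries differed by less than counting error alone would give. miR-342-3p averaged 178 ± 20.5 units, and miR-155, which rises in activated lymphocytes and macrophages, 114 ± 20.4. Red cell miRNAs were present as well: miR-451 averaged 1040 ± 111 units, miR-144 187 ± 12.5 and miR-486 53.3 ± 7.63.

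Markers of other organs were near the limit. The neural miRNAs miR-137, miR-124, miR-9 and miR-138 averaged 68.5, 67.3, 53.9 and 36.5 units, and miR-219 and miR-153 were below background in all 4 libraries. The liver miRNA miR-122 averaged 45.8 ± 4.62 units. Of the pancreatic miRNAs, miR-216b averaged 62.2 ± 11.5 units, and miR-216a and miR-217 were below background in all 4 libraries. The 46 probes of all the cell type lists together held 35.4% ± 1.05 of the mouse signal.

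**Figure D3:**
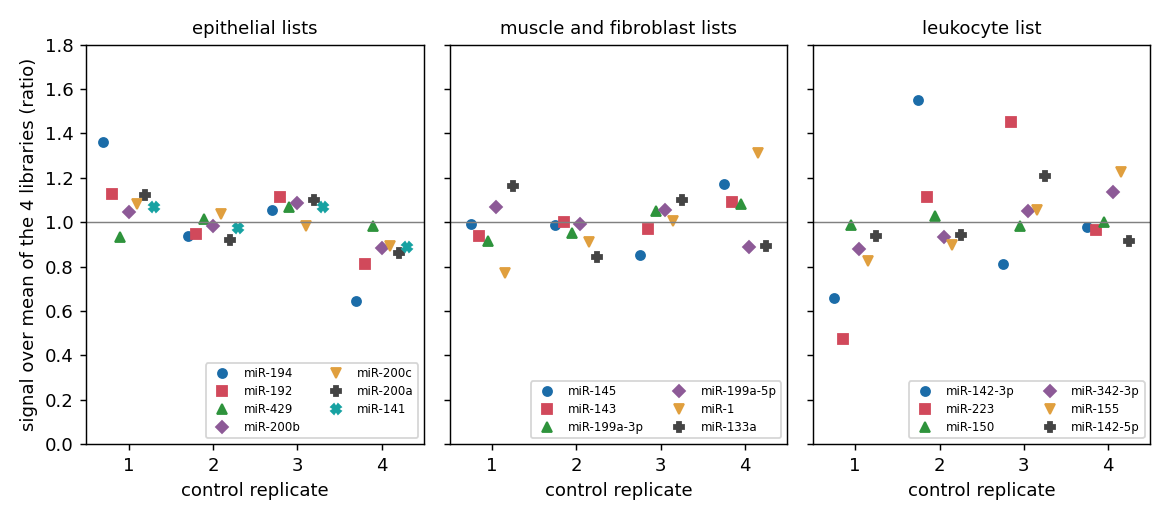
Signal in each control library divided by the probe's mean over the 4 libraries, for the members above background of the epithelial, muscle and fibroblast, and leukocyte lists. miR-194 runs from highest in replicate 1 to lowest in replicate 4, miR-1 is highest in replicate 4, miR-142-3p and miR-223 spread most, and miR-150 stays near 1.

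Among the broad families, the let-7 list of 9 probes held 19.9% ± 0.637 of the mouse signal, all 9 above background. Over all mouse probes, 33.4% were above background. Probes of the miR-17-92 cluster and of its paralog clusters, which promote growth, held 5.23% ± 0.317 with 8 of 11 probes above background, led by the joint probes for miR-20a and miR-20b (4142 ± 307 units) and for miR-106a and miR-17 (2464 ± 175). The miR-23, miR-27 and miR-24 clusters held 2.80% ± 0.149, with miR-27a at 2707, miR-23a at 2338 and miR-24 at 154 units. The miR-29 family, which represses collagen genes, held 1.42% ± 0.0509, with miR-29a, miR-29c and miR-29b at 1241, 1033 and 1028 units. The miR-30 family held 1.26% ± 0.0426, led by miR-30c at 1761 ± 140. The miR-125 family, related to the worm miRNA lin-4, held 1.49% ± 0.201, led by miR-125b-5p at 2316 ± 253.

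Of the miRNAs that respond to inflammation, miR-21 had 2516, 2931, 2959 and 2349 units (mean 2689 ± 304), and miR-146a, which dampens signalling downstream of Toll-like receptors, averaged 288 ± 45.2. miR-146b averaged 151 ± 12.6. The list held 1.35% ± 0.135. The miR-181 family held 0.611%, nearly all of it miR-181a at 1334 ± 130 units, and the miR-10, miR-99 and miR-100 family held 0.613%, with its 5 probes between 214 and 331 units. The family of miR-130 and miR-301 held 0.330% and the miR-26 family 0.175%. Of 50 probes from the imprinted Dlk1-Dio3 cluster, which is expressed from the maternal chromosome, 13 were above background. Among all 566 mouse probes 189 (33.4%) were. The cluster held 1.23% ± 0.148. miR-376a led it with 1017 ± 92.3 units, followed by miR-136 with 328 ± 28.6. Probes for fragments of transfer and ribosomal RNA, most of it miR-720, held between 9.92% in replicate 3 and 13.1% in replicate 2, a mean of 11.8% ± 1.57. All 26 lists covered 168 probes and 89.1% ± 0.871 of the mouse signal.

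**Figure D4:**
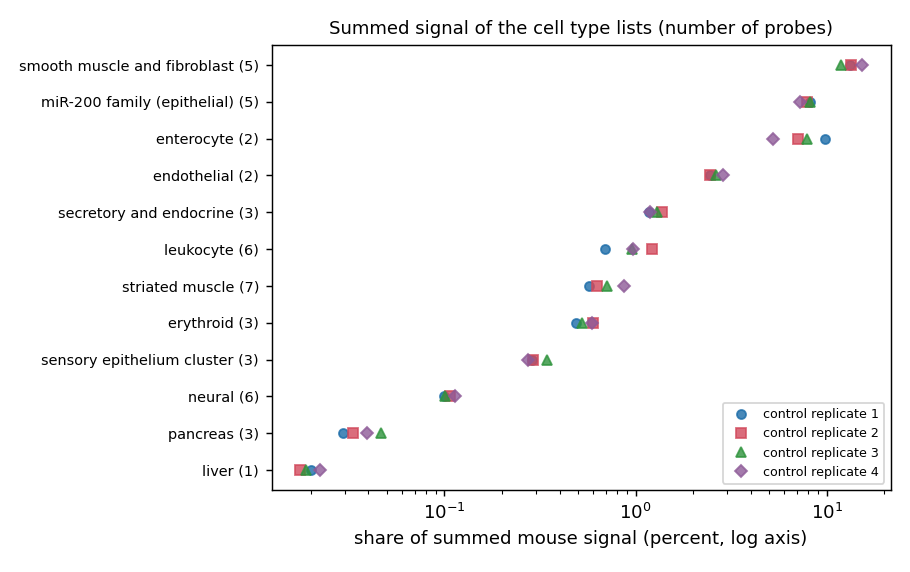
Share of the mouse signal (percent, log axis) held by each of the cell type lists in the 4 control libraries, one point per library, with the number of probes per list. The smooth muscle and fibroblast list lies at 11.9% to 15.4%, and the enterocyte list at 5.23% to 9.74%. The lowest are the neural, pancreas and liver lists.

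Neighbouring miRNAs of 1 locus did not have equal signal. Ratios below are means of the ratios within each library, ± SD. miR-194 and miR-192 lie within 220 bases of each other at chr19:6264658-6264877 (GRCm38.p6, plus strand), and miR-194 has a second copy at chr1:185313325-185313346 within the span of Iars2. Their ratio was 2.92, 2.39, 2.29 and 1.92 in replicates 1 to 4. miR-194 was higher in all 4, with a mean ratio of 2.38 ± 0.414. miR-145 exceeded miR-143, its neighbour, with a ratio of 2.33 ± 0.205. At chr4:156053916-156055706 on the minus strand, within the span of Gm13648, miR-429 and miR-200b were close (ratio 1.05 ± 0.0964) and miR-200b exceeded miR-200a with a ratio of 2.30 ± 0.132. At chr6:124717917-124718346, miR-200c exceeded miR-141 with a ratio of 2.72 ± 0.163. So in both miR-200 clusters the members with the seed AAUACUG read higher than those with AACACUG.

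Wider gaps were seen elsewhere. miR-16 exceeded its neighbours miR-15a (chr14:61631936-61632096) and miR-15b (chr3:69009775-69009939) with ratios of 3.53 ± 0.127 and 3.35 ± 0.145, miR-16 being made from both loci. miR-451 exceeded miR-144 with a ratio of 5.59 ± 0.709, miR-25 exceeded miR-93 with a ratio of 8.97 ± 0.495, and miR-27a exceeded miR-24 with a ratio of 18.0 ± 3.16. The joint probe for miR-20a and miR-20b averaged 4142 units, whereas miR-92a of the same cluster had 23.7, 27.6, 33.5 and 24.1 units and passed the limit in replicate 3 alone. In a ratio between probes, unequal probe efficiency and unequal amounts cannot be told apart.

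The panel had probes for both arms of 65 hairpins, and 24 had at least 1 arm above background in all 4 libraries. Each of these hairpins had 2 probes that could pass, and 33.4% of all mouse probes did. miR-126-3p exceeded miR-126-5p with a ratio of 13.3 ± 0.934, miR-125a-5p its 3p arm with a ratio of 15.7 ± 2.50, and miR-151-5p its 3p arm with a ratio of 19.3 ± 1.96. miR-142-3p exceeded miR-142-5p with a ratio of 22.3 ± 9.83, with a range of 14.7 to 35.8. The widest mean ratio of the 10 most abundant pairs was that of miR-125b-5p over its 3p arm, 90.7 ± 33.7, with a range of 45.7 to 127. That 3p arm passed the limit in 1 library only. The arms of miR-199a were the closest of the 10 most abundant pairs, the 3p arm exceeding the 5p arm with a ratio of 1.43 ± 0.220. The lower arms of miR-342, miR-335 and miR-434 were below background in all 4 libraries.

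The steadiest miRNAs, among probes above background with a mean over 100 units, were led by miR-150 of lymphocytes. miR-150 had a CV of 1.93%, miR-106b of the miR-17-92 paralogs 2.20% and miR-30a 2.99%, each below its counting error of about 5%. The endocrine miR-7a followed with 3.78% and miR-191 with 4.11%, both also below their counting error. The let-7 members let-7b, let-7i, let-7g and let-7d had CVs of 4.19% to 4.88%, and miR-27a 4.79%. A CV below counting error was found for 46 of 189 probes. By level, 32 of 68 probes of up to 100 units did, 14 of 74 between 100 and 1000, and 0 of 47 above 1000. The median CV in these classes was 14.1%, 12.0% and 8.72%, against counting errors of 13.0%, 7.24% and 2.15%. Spread beyond counting error was thus measurable for the abundant miRNAs and barely so for the weak ones.

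At the other end, 29 of the 189 probes had a CV above 20% and 4 above 50%. The 4 were miR-2134 (138%), miR-196b (118%), miR-1186 (114%) and miR-2141 (95.4%), of which miR-2134 and miR-2141 are fragments of ribosomal RNA. miR-196b, which lies in a Hox cluster and targets Hox genes, had 113, 149, 776 and 84.8 units. miR-1186 had 108, 169, 772 and 92.8 units. miR-2134 had 38.9, 176, 849 and 50.4 units and miR-2141 had 44.0, 70.1, 243 and 44.7 units. All 4 were over 3 times as high in replicate 3 as in each other library, and no probe above background was so in any other library. The brightest herpesvirus probe, mghv-miR-M1-7-5p, had 185, 69.1, 426 and 159 units. Without replicate 3 their CVs were 86.2%, 27.8%, 32.7% and 28.2% in the order first named. The count of probes with a CV above 50% was then 2, and it was 7 without replicate 4.

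The next most variable among probes with a mean over 100 units were miR-322 with 93.8, 74.4, 124 and 200 units, the joint probe for miR-1937a and miR-1937b with 885, 2248, 1089 and 1482 units, miR-223, miR-142-3p, miR-194 and miR-203. miR-322, a member of the miR-15/16 family, was highest in replicate 4. miR-203, a miRNA of stratified and differentiating epithelium, had 792, 1152, 1417 and 974 units. The highest library differed among them: replicate 1 for miR-194, replicate 2 for miR-142-3p and the joint miR-1937a probe, replicate 3 for miR-223 and miR-203, and replicate 4 for miR-322. Across the 189 probes, replicate 3 was the highest library in 80 and the lowest in 17.

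**Figure D5:**
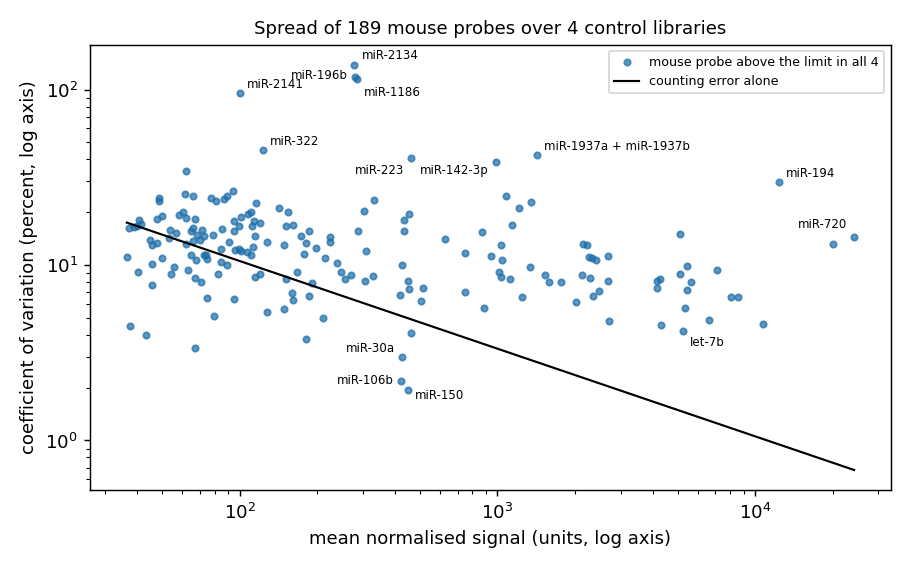
Coefficient of variation over the 4 control libraries (percent, log axis) against mean normalised signal (log axis) for the 189 mouse probes above background. The line is counting error alone, miR-2134, miR-196b, miR-1186 and miR-2141 lie above 50%, and miR-150, miR-106b and miR-30a lie below the line.

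Some miRNAs followed the same order of libraries. There are 24 possible orders of 4 libraries, and each would hold 4.17% of the probes if all were alike. miR-194, miR-192, miR-200a, miR-141, miR-22, miR-199a-5p and miR-29b, with 9 weaker probes, ran from replicate 1 through 3 and 2 to 4, which is 8.47% of the 189 probes. Another order, from replicate 4 through 3 and 2 to 1, held 19 probes (10.1%), with let-7d, let-7f, miR-199a-3p, miR-1 and miR-376a above 1000 units. Neither order was far ahead of the rest. The order from replicate 3 through 2 and 1 to 4 held 18 probes (9.52%). That from replicate 3 through 1 and 2 to 4 held 16, with let-7g, miR-16 and miR-200b among them. Members of a list did not all follow its order: miR-133a was highest in replicate 1, unlike miR-1, miR-429 and miR-200b were highest in replicate 3, and the 2 arms of miR-199a fell into different sets. These orders were read off after the values were seen.

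At the limit itself, the weakest probes called above background were miR-190, miR-1906 and miR-138, with means of 37.7, 37.4 and 36.5 units. The brightest probes that missed it in at least 1 library were miR-376b with 40.6, 48.9, 356 and 30.9 units, miR-466h with 43.1, 56.3, 97.7 and 28.6 units, and miR-345-5p with 33.0, 37.2, 89.4 and 27.5 units. All 3 were highest in replicate 3 and fell under 32 units in replicate 4.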

How the data were processed

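The values are normalised signal as deposited by the authors. Per the labels' protocols, RNA from an RNeasy column preparation was run on the nCounter mouse miRNA panel of version 1.5. The scaling behind them is not given in the sources used here. Each value deposited proved to be a whole count times 1 factor per library (100% of values whole within 0.01 of a count), and the table lists no positive, negative or housekeeping probes, so the 33 herpesvirus probes gave the background.

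The 4 control libraries were used as deposited, with Python 3.11.15, numpy 2.4.6, pandas 2.3.3 and matplotlib 3.10.9. Totals were 169844 to 274302 counts. A probe was above background over 32 units in all 4 libraries. Shares are of the summed mouse signal of a library, and values are mean ± SD (n = 4). Counting CV is that of Poisson error alone on the recovered counts. The recovery of counts and the spread calculation were checked on simulated libraries. Pairs of libraries were compared by a chi-square statistic on the counts, with no p-value. No difference between probes or lists was tested.

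The members and the 26 lists were chosen with earlier results of these data known. Named probes were the 20 most abundant, up to 4 of the highest per list (all above background in lists of up to 6), the 10 highest and lowest CVs over 100 units, 3 probes on each side of the limit, and up to 10 arm pairs and seed families. Other probes were named after their values were seen. Probes without an arm in their name were matched to the arm commonly taken as the guide strand. Alternatives were other limits, denominators, scalings and averages, and each library left out.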

Additional observations from a re-analysis of the deposited data

Results flagged for a closer look

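In groups of 4, chance sets 1 library apart by the gap ratio used here in about 1 in 20 measures. Of all 189 probes above background 11 were set apart, against 9.45 by that rate. Of the 119 named probes 11 were, against 5.95, but these were named partly for their spread or closeness to the limit, and measures of the same libraries are not independent.

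Replicate 3 was the library set apart, on the high side, for miR-2134 (849 units, against 38.9 to 176 in the others), miR-196b (776, against 84.8 to 149), miR-1186 (772, against 92.8 to 169), miR-376b (356, against 30.9 to 48.9), miR-2141 (243, against 44.0 to 70.1), miR-27a (2900, against 2624 to 2655), miR-345-5p (89.4, against 27.5 to 37.2) and miR-142-5p (54.5, against 41.2 to 42.5). It was also set apart by its summed mouse signal of 236249 units, against 230804 to 231324. Its total count, its number of mouse probes above 32 units and its mean herpesvirus signal were not set apart by that ratio. On the low side replicate 3 was set apart for miR-30a (406 units, against 431.5 to 431.9). Replicate 4 was set apart for let-7f on the high side (6240 units, against 5122 to 5218). It was set apart on the low side for miR-106b (409 units, against 426 to 429) and for the share of the seed family of miR-429, miR-200b and miR-200c (5.83%, against 6.38% to 6.49%).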

How the results depend on the processing

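The number of probes above background depended most on the limit: 189 at 32 units became 105 at 100 units and 96 at the herpesvirus mean plus 2 SD of each library. That last limit ran from 36.9 units in replicate 2 to 172 in replicate 3. In replicate 3 the probe mghv-miR-M1-7-5p read 426 units and the next herpesvirus probe 34.9. With 1 library left out, the number at 32 units lay between 189 and 196. Without the probes for transfer and ribosomal RNA fragments, which lowers the denominator by construction, the 10 most abundant probes held 43.8%, the miR-200 family 8.94%, the smooth muscle and fibroblast list 15.3% and the let-7 family 22.5%, and the most abundant probe became miR-145 with 9.77%. Among the other 21 lists, 18 moved by more than their SD under that denominator and 4, the neural, liver, pancreas and Dlk1-Dio3 lists, with the herpesvirus mean subtracted. None of the 21 did so under the other denominators, averages or left-out libraries tried. The number of probes with a CV above 50% was 4, became 0 at a limit of 100 units, and ranged from 2 to 7 with 1 library left out. The median CV lay between 9.07% and 14.3% over all settings tried. Of the 20 most abundant probes, 19 or 20 were kept under every average and left-out library tried. Among 119 named probes, the level of miR-150 moved by more than its SD under quantile normalisation, to 462 units, and no other did under the scalings and left-out libraries tried. No paired analysis was possible because 1 group of libraries is described and its replicate numbers only name the libraries. Counting error limits what can be said of probes near 32 units, where 1 count was worth up to 1.40 units.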
